A study of Mus musculus with 28 samples.

Results

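Mouse medulloblastoma and mouse glioma that had both lost p53 were compared across all genes on the array. Every tumour array of the series was taken by its tissue label, which gave 10 medulloblastomas and 6 gliomas, 16 of the 28 arrays in all. The 12 normal brain arrays were not part of the test, and their levels are quoted only as background. All 16 tumours carried hGFAP-Cre, a Cre recombinase transgene under the human GFAP promoter that is active in neural progenitors and in glia, together with p53-/-. The medulloblastomas comprised 3 with no change at Rictor (hGFAP-Cre::p53-/-), 2 that were Rictor+/- and 5 that were Rictor-/-. Among the gliomas 1 had no change at Rictor, 4 were Rictor+/- and 1 was Rictor-/-. Rictor encodes a core component of the mTORC2 kinase, and its genotype entered the model as a term beside the tissue because the genotypes were spread unequally over the tumours. In that model the p53-null-only and the Rictor-/- gliomas were each represented by a single array. The labels used here give no ages and name no separate animals within a group. The p-values therefore reflect only how much these samples varied, part of which may be technical.

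Medulloblastoma is a tumour of the cerebellum. Its sonic hedgehog (SHH) form arises from precursors of the cerebellar granule neurons: SHH binds the receptor PTCH1, which releases the membrane protein SMO and lets the GLI transcription factors drive proliferation. Glioma is a tumour with features of glial cells, and many gliomas carry the genes of oligodendrocyte precursors, the dividing cells that express the growth factor receptor PDGFRA and give rise to myelinating cells.

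The values were intensities on a linear scale, which the authors had scaled to a common trimmed mean of 100 per array. Median intensities lay between 20.2 and 27.8. Across genes, arrays correlated at r = 0.915 to 0.958 within medulloblastoma, 0.932 to 0.955 within glioma and 0.883 to 0.932 between the tumour types. The 3' to 5' ratio of Gapdh, which rises with RNA degradation, was 1.26 ± 0.26 (SD, n = 10) in medulloblastoma and 1.39 ± 0.27 (SD, n = 6) in glioma. The same ratio for actin was 2.55 ± 0.83 in medulloblastoma, with a maximum of 4.38 in B4, and 2.23 ± 0.46 in glioma. The part of RNA quality in the results was not tested. Transcripts of mature granule cells varied within both tumour types: Gabra6, a receptor subunit of mature granule neurons, read 1638 in medulloblastoma B6, 1324 in medulloblastoma C6, 1014 in glioma B7, 675 in glioma B2 and 204 in glioma A4, and at most 187 in the other tumours. The 187 was read in medulloblastoma C5, close to glioma A4. For the mean log2 level of 11 mature granule and Purkinje cell genes A4 (6.828) lay below C5 (7.077) and medulloblastoma A6 (6.855). Leaving out the 5 arrays also leaves out A4, and the part of granule cell transcripts in the lost calls was not tested. Counts of list members called without those 5 arrays, or without glioma A4 alone, are given where they moved by 1.5 times or more. Tumours are named by the code in their titles. Every title begins with mMB, gliomas included, so the groups rest on the tissue label alone.

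The tissue labels were set against marker genes first. Atoh1, the master transcription factor of granule neuron precursors, lay between 37.5 and 1679 with a median of 1111 in the medulloblastomas, and between 4.2 and 10.3 with a median of 6.75 in the gliomas. Olig2, which specifies oligodendrocyte precursors, lay between 39.0 and 345 (median 152) in the medulloblastomas and between 1073 and 1781 (median 1262) in the gliomas. All medulloblastomas were above all gliomas for Atoh1 and below all of them for Olig2, so no array went against its label between the tumour types for these genes. The lowest medulloblastoma for Atoh1, C6 at 37.5, lay within the normal brain range of 1.4 to 176. Gfap, the intermediate filament of astrocytes, overlapped between the tumour types: it ran from 11.7 to 124 in medulloblastoma and from 48.1 to 1024 in glioma, with a log2 difference of -1.26 ± 0.55 (SE, adjusted p = 0.12). Its other probe sets gave log2 differences of -0.82 and -1.09, and neither passed the test.

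Rictor itself read 223 to 273 in the p53-null-only medulloblastomas, 261 and 277 in the Rictor+/- ones and 68.8 to 236 in the Rictor-/- ones. In the gliomas it read 376 in the p53-null-only tumour, 193 to 316 in the Rictor+/- tumours and 144 in the Rictor-/- tumour. Transcript was thus still read in tumours labelled Rictor-/-. The sources used here do not place the probe set relative to the deleted exons, so these values do not test the genotype. Between tumour types the log2 difference was -0.09 ± 0.25 (SE, adjusted p = 0.85), and its direction changed with the probe set and with the arrays used.

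Of 13786 genes tested, 2783 (20.2%) differed between the tumour types at an adjusted p under 0.05 (limma, Benjamini-Hochberg). Of these, 1322 were higher in medulloblastoma (9.59% of the genes tested) and 1461 were higher in glioma (10.6%). Every count of list members below stands against these shares, and some counts lie near them. The lists and their members were chosen with earlier results of these data known, so their counts and medians are descriptions, not tests. Past 4-fold, 200 genes were higher in medulloblastoma and 331 in glioma, and past 16-fold the counts were 25 and 10. Every medulloblastoma exceeded every glioma for 377 genes (2.73%), and every glioma exceeded every medulloblastoma for 493 (3.58%). The median log2 difference over all genes tested was 0.02. Without glioma A4, the only p53-null-only glioma, 1468 genes were called, and without the 5 tumours rich in Gabra6 transcript 975 were called, of which 928 were also called with all arrays. Of the genes named here, 22 lost their call without glioma A4 and 32 without the 5 Gabra6-rich tumours, the latter including Otx2, Slc17a6, Dusp5, Mab21l2, Chd7, Pmaip1, Plk2 and Mad2l1. Leaving out glioma C3 ended 14 such calls, among them Smo, Gpc3, Igf2, Irs1, Prr5l and Bmp7, and leaving out medulloblastoma B4 ended 12, among them Smo, Hhip, Prr5l, Clic6 and Col9a1. Titles also carry a prefix, YZ or YZ2, whose meaning the labels do not state: 2326 genes were called with it as a block, 1841 within the YZ arrays (5 medulloblastomas, 4 gliomas) and 704 within the YZ2 arrays (5 and 2). In bulk tissue, fewer cells of a type and less RNA per cell cannot be told apart.

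**Figure D1:**
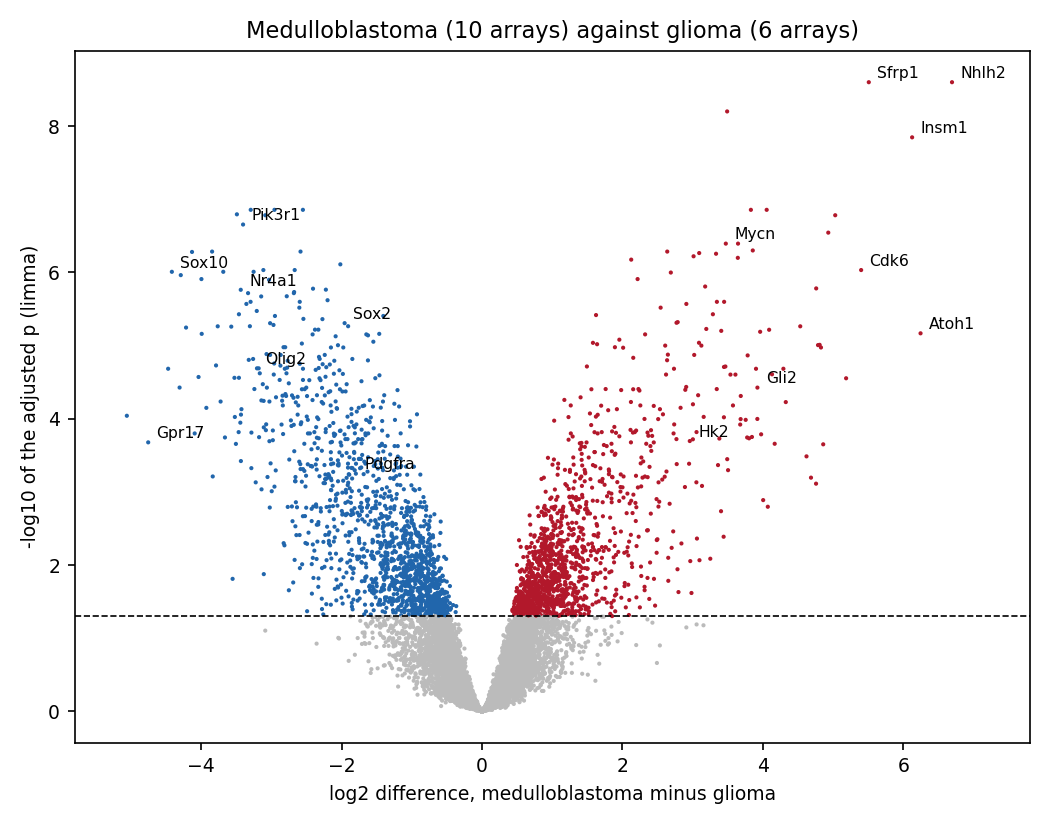
Each point is 1 of the 13786 genes tested. The horizontal axis is the log2 difference between medulloblastoma and glioma (positive: higher in medulloblastoma), the vertical axis is -log10 of the limma adjusted p, and the dashed line marks 0.05. Red points (1322 genes) were higher in medulloblastoma and blue points (1461) in glioma, with Nhlh2 at 6.69 at the far right and Sox10 at -4.42 among the points on the left.

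Genes of granule neuron precursors gave the 3 largest rises in medulloblastoma. Of 19 such genes tested, most of them transcription factors, 17 were higher in medulloblastoma, 1 (Eya1) was lower and 1 (Meis2) did not pass, and their median log2 difference was 3.36 against 0.02 over all genes. Nhlh2, a basic helix-loop-helix factor of young neurons, lay between 525 and 1732 (median 1038) in the medulloblastomas and between 1.5 and 19.2 (median 3.7) in the gliomas. It showed the largest rise of all named genes, 6.69 ± 0.32 (SE, adjusted p = 2.51e-09). Insm1, a zinc finger factor of dividing neuronal precursors, ran from 765 to 2444 in medulloblastoma and from 6.3 to 50.9 in glioma (log2 difference 6.13 ± 0.35, adjusted p = 1.42e-08). Atoh1 differed by 6.25 ± 0.65 (adjusted p = 6.79e-06), although medulloblastoma C6 stood far below the others at 37.5. Neurod1, which drives granule neuron differentiation, was at 1603 to 4737 in medulloblastoma and 18.9 to 735 in glioma. It read 735 in B7, 694 in B2 and 141 in A4, the Gabra6-rich gliomas, and 18.9 to 32.5 in the others. Normal brain reached 3831, and the call was lost in the Rictor+/- tumours alone. Zic1, a zinc finger factor of the cerebellar primordium, was bright in both tumour types, at 3305 to 5219 in medulloblastoma and 378 to 1757 in glioma, without overlap (2.45 ± 0.33, adjusted p = 6.67e-05). Without glioma A4, 15 of the 19 were higher and none was lower.

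Promoters are shown for genes that separated the tumours in every array: Nhlh2 and Atoh1, the largest rises, and Tnr and Lhfpl3, which rank 3 and 13 among the falls without overlap and were chosen after their sequences were seen because each held a motif. Each line gives the 250 bases before the RefSeq start on the gene's own strand (GRCm38.p6, all on the plus strand), with capitals marking an E-box (CAGCTG, bound by basic helix-loop-helix factors) or a SOX motif (ACAAAG, or CTTTGT on the other strand).
Nhlh2, chr3:102009895-102010144: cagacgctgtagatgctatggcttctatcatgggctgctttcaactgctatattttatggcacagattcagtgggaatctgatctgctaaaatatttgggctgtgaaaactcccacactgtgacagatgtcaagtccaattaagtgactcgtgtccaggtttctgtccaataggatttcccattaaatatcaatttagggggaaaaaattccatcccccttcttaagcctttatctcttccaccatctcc
Atoh1, chr6:64728875-64729124: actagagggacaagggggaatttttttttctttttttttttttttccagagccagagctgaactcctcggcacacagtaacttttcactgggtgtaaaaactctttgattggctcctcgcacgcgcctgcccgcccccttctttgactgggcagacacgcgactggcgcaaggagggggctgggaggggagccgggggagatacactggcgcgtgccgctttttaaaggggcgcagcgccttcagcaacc
Tnr, chr1:159523519-159523768: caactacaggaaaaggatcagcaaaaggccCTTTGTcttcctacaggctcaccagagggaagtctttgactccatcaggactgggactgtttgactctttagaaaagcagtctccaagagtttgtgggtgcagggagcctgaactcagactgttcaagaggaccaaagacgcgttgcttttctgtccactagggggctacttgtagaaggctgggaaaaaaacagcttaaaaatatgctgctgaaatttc
Lhfpl3, chr5:22745804-22746053: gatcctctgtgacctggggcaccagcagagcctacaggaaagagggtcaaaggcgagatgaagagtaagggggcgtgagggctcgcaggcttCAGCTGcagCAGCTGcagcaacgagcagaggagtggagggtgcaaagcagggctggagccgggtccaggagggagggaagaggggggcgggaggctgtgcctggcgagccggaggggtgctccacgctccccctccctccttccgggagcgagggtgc
Neither motif occurred in these letters in front of Nhlh2 or Atoh1. The Tnr sequence held 1 SOX motif, and the Lhfpl3 sequence held a pair of E-boxes close together.

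The same motifs were counted over windows that ran from 250 bases before to 50 bases after the start, on both strands, for the 11073 of 13786 tested genes with a RefSeq promoter (14208 promoters). The E-box occurred in 15.8% of all promoters, in 15.1% of those of genes higher in medulloblastoma and in 17.2% of those higher in glioma. Shares for the SOX motif were 14.4%, 17.2% and 12.8% in the same order. The GLI motif TGGGTGGTC occurred in 0.183% of all promoters, 1 promoter among the genes higher in medulloblastoma and 3 among those higher in glioma. Among granule precursor factors 3 of 17 promoters held an E-box and 2 held a SOX motif. Among oligodendrocyte precursor genes 5 of 22 promoters held an E-box and 6 held a SOX motif. These are matches of letters, not binding sites.

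Hedgehog genes were split by their place in the pathway. At the receptor level, 5 of 16 genes were higher in medulloblastoma (Smo, Hhip, Boc, Sufu and Gpc3), none was lower, and the median difference was 0.24. Boc, a co-receptor for SHH, did not overlap between the groups: it lay between 286 and 433 (median 368) in the medulloblastomas and between 36.2 and 99.7 (median 73.1) in the gliomas (2.22 ± 0.19, adjusted p = 1.23e-06). Smo, the signal transducer, ran from 150 to 856 in medulloblastoma and from 44.2 to 343 in glioma (1.40 ± 0.45, adjusted p = 0.037). Without glioma A4 only 1 of the 16 was called, and Smo, Hhip and Gpc3 were among those lost, at adjusted p of 0.12, 0.15 and 0.07. Ptch1, the receptor and a target of the pathway, is named after its values were seen. It read 34.2 in medulloblastoma A3 and 42.3 in medulloblastoma C5 and 372 to 1942 in the other 8, while the gliomas lay between 545 and 965, so the groups overlapped (-0.23 ± 0.89, adjusted p = 0.89).

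Of 11 hedgehog transcription factors and targets, 5 were higher in medulloblastoma and 2 were lower, with a median of 0.45. Gli2, the main activator of the pathway, lay between 422 and 1600.0 (median 659) in the medulloblastomas and between 15.6 and 175 (median 36.5) in the gliomas (3.92 ± 0.49, adjusted p = 3.75e-05). Gli1, an activator that is itself induced by the pathway, ran from 23.4 to 321 in medulloblastoma and from 1.3 to 7.6 in glioma (3.69 ± 0.48, adjusted p = 4.88e-05). Neither overlapped, and Gli3, which acts mostly as a repressor, did not pass the test (0.26 ± 0.65, adjusted p = 0.83). Sfrp1, a secreted WNT inhibitor and known marker of SHH medulloblastoma, ran from 419 to 1848 against 9.2 to 18.9 (5.51 ± 0.27, adjusted p = 2.51e-09). Mycn, a proliferation factor downstream of GLI that is named after its values were seen, read 1178 to 4134 in medulloblastoma and 113 to 205 in glioma (3.47 ± 0.27, adjusted p = 4.04e-07).

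The D-type cyclins went opposite ways. Ccnd2 was higher in medulloblastoma, at 425 to 6928 (median 3436) against 66.4 to 2552 (median 337) in glioma (3.10 ± 0.76, adjusted p = 0.0086), with overlap. Ccnd1 was higher in glioma, at 3410.0 to 8011 against 532 to 3961 in medulloblastoma (-1.82 ± 0.29, adjusted p = 0.00029), and Ccnd3 was higher in glioma without overlap (-1.66 ± 0.30, adjusted p = 0.00086). Their kinase partner Cdk6 was at 473 to 4715 (median 1217) in medulloblastoma and 17.3 to 49.0 (median 32.9) in glioma (mean of 12 normal brains 31.5), a difference of 5.399 ± 0.46 (adjusted p = 9.27e-07). Cdk4, the related kinase, differed by 0.53 and did not pass. E2f1, the factor released by these kinases, was higher in every medulloblastoma, at 84.4 to 190.3 against 9.7 to 44.5 (1.89 ± 0.21, adjusted p = 1.05e-05). Of 19 regulators of the G1 phase, 6 were higher in medulloblastoma and 2 in glioma, where 9.59% and 10.6% of all genes were called in these directions. Without glioma A4, and likewise without the Gabra6-rich tumours, 3 were higher in medulloblastoma.

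**Figure D2:**
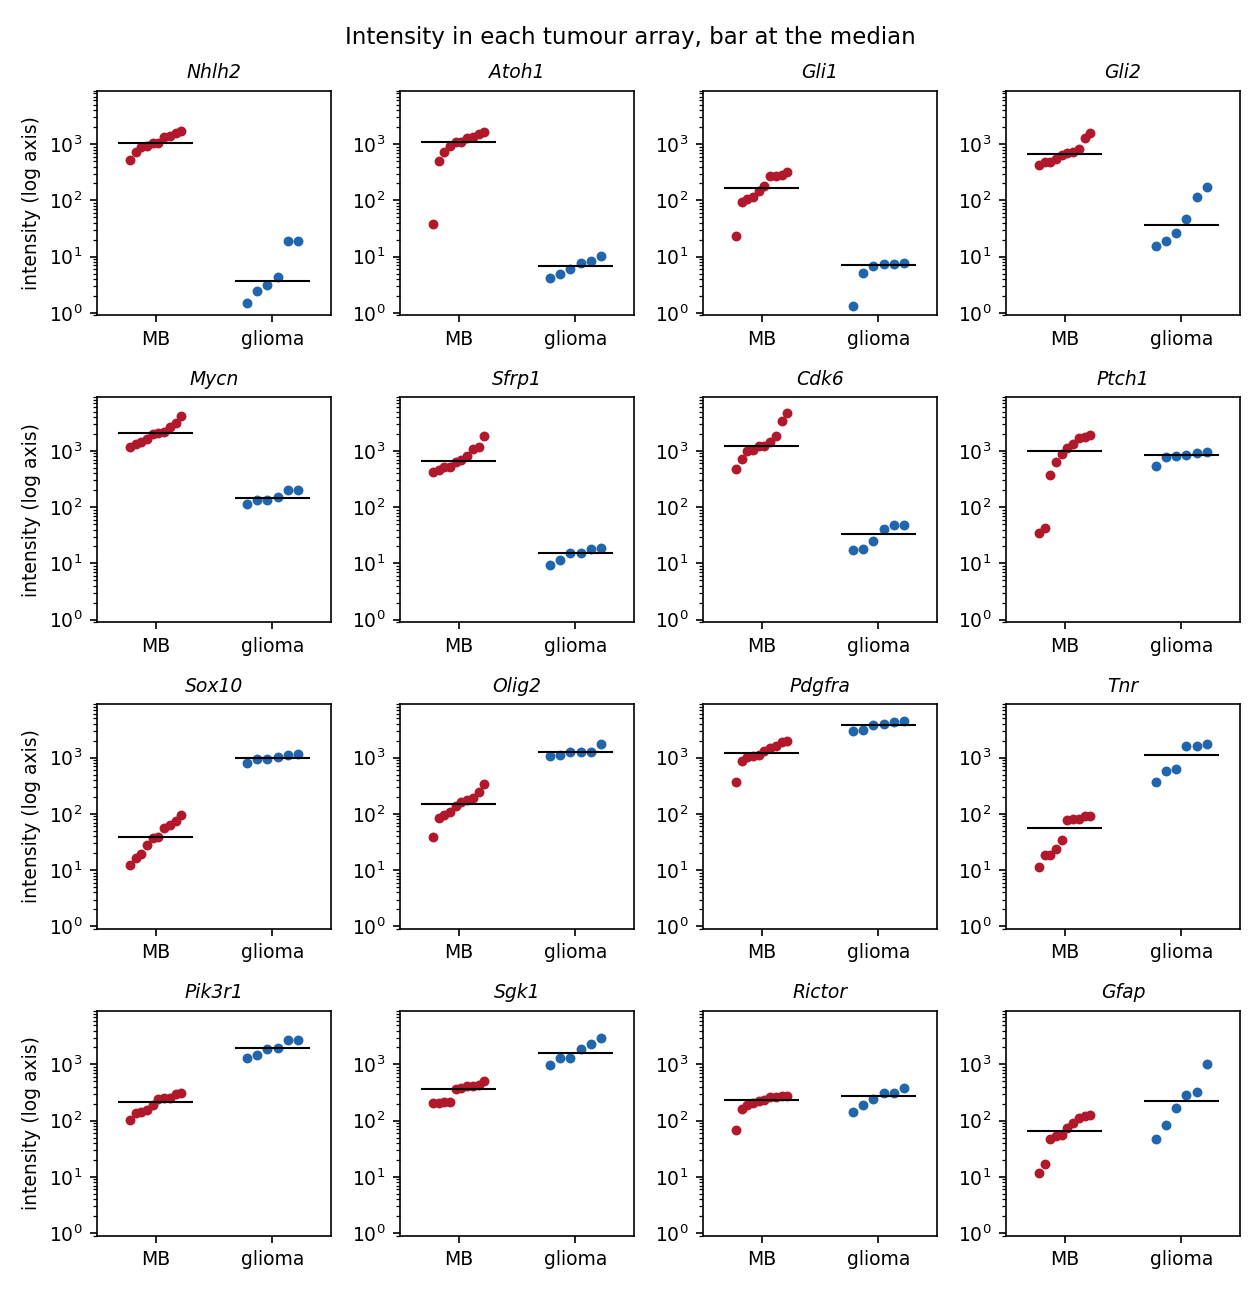
Intensity of 16 genes in each tumour array, on a log axis; each point is 1 array, sorted by value within its group (MB, medulloblastoma, n = 10; glioma, n = 6), and bars mark medians. Nhlh2, Atoh1, Gli1, Gli2, Mycn, Sfrp1 and Cdk6 are separated upward in medulloblastoma and Sox10, Olig2, Pdgfra, Tnr, Pik3r1 and Sgk1 upward in glioma, while Ptch1, Rictor and Gfap overlap.

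The remaining large rises had varied roles. Socs2, which damps cytokine and growth hormone signalling, lay between 491 and 2924 in medulloblastoma and between 20.2 and 125 in glioma (4.93 ± 0.37, adjusted p = 2.86e-07). Mab21l1, a developmental gene of eye and brain that is also in the granule precursor list, differed by 5.03 ± 0.36 (adjusted p = 1.65e-07). Hpca encodes hippocalcin, a neuronal calcium sensor, and ran from 212 to 1733 against 6.3 to 107 in glioma; its normal brain mean of 1429 was of the same order as the brightest medulloblastoma. Unlike Hpca, Igfbpl1 was nearly dark in normal brain (mean 4.85) and read 181 to 1088 in medulloblastoma against 1.8 to 93.0 in glioma (4.83 ± 0.53, adjusted p = 1.06e-05). Steroid enzymes were among them: Hsd11b2, which inactivates corticosteroids, differed by 4.79 ± 0.52, and Cyp11a1, which starts steroid synthesis, by 4.76 ± 0.84 with a spread from 15.2 to 3282 within medulloblastoma. Uncx, a homeobox factor, Krt12, a keratin, and Tbata completed the 15 largest rises, at 4.76, 4.62 and 5.19.

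Oligodendrocyte precursor genes were among the largest differences toward glioma. Of 23 tested, 21 were higher in glioma and none in medulloblastoma; C1ql1 and Dll3 did not pass, at -0.76 and 0.07. The median log2 difference was -3.26, and the summed intensity of the list lay between 22078 and 35224 in the gliomas and between 2512 and 7621 in the medulloblastomas. Sox10, the lineage's defining SOX factor, lay between 12.3 and 97.0 (median 38.3) in the medulloblastomas and between 809 and 1149 (median 997) in the gliomas (-4.42 ± 0.38, adjusted p = 9.80e-07). The 6 gliomas differed little from each other for this gene, and none approached a medulloblastoma. Nkx2-2, a homeobox factor of the lineage, ran from 3.6 to 39.7 against 155 to 943 in glioma (-4.21 ± 0.43, adjusted p = 5.67e-06). Sox6, which holds precursors undifferentiated, ran from 38.0 to 175 against 628 to 1722 (-3.84 ± 0.30, adjusted p = 5.18e-07).

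Surface and matrix genes of the same cells followed. Pdgfra, the receptor for platelet-derived growth factor A, was bright in both tumours, at 374 to 2019 (median 1219) in medulloblastoma and 2972 to 4546 (median 3881) in glioma (-1.80 ± 0.31, adjusted p = 0.00056). Its brightest probe set is the one used here, and the others disagree with each other. The dimmest, with means of 81.0 in medulloblastoma and 195 in glioma, had the same direction and passed in limma (-1.45, adjusted p over probe sets 0.017). The middle one, with means of 474 and 206, gave 0.57 with no call (adjusted p over probe sets 0.52). Cspg4, the NG2 proteoglycan that marks these precursors, ran from 17.5 to 151 against 170.2 to 1561 in glioma (-3.72 ± 0.49, adjusted p = 5.82e-05). Tnr, which encodes the matrix protein tenascin-R, lay between 11.2 and 93.6 in medulloblastoma and between 375 and 1772 in glioma (-4.31 ± 0.54, adjusted p = 3.75e-05). Vcan, the proteoglycan versican, ran from 43.9 to 358 against 1200.0 to 3881 (-3.99 ± 0.42, adjusted p = 6.91e-06). Gpr17, a receptor of precursors about to differentiate, showed the largest difference of the list at -4.75 ± 0.72 (adjusted p = 0.00021), with overlap because 1 glioma read 125. Kctd4, the largest fall among genes without overlap, ran from 4.7 to 111 in medulloblastoma and 169 to 1042 in glioma (-4.47 ± 0.53). Susd5, Scrg1, Hapln1, Matn4, Pcdh15, Vxn, Lhfpl3 and Sema3d were the remaining large falls, between -4.29 and -3.76.

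Of 21 matrix and collagen genes, 8 were higher in glioma and none in medulloblastoma, with a median of -0.89. Without the Gabra6-rich tumours 4 were higher in glioma and 1 in medulloblastoma, and in the Rictor+/- tumours alone 1 was higher in glioma. Hapln1, which links hyaluronan to proteoglycans, was at 0.5 to 15 in medulloblastoma and 46.0 to 799 in glioma (-4.09 ± 0.60, adjusted p = 0.00016). Acan, the proteoglycan aggrecan, differed by -2.85 ± 0.41 (adjusted p = 0.00012). Col9a1, a collagen chain of cartilage, ran from 204 to 5429 among the gliomas (-2.75 ± 0.79, adjusted p = 0.022), and its call was lost without glioma A4.

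Myelin genes of mature oligodendrocytes moved less than precursor genes. Of 12 tested, 4 were higher in glioma (Cnp, Cldn11, Ugt8a and Myrf) and 8 did not pass, with a median of -1.38. Ugt8a, which makes a myelin lipid, lay between 64.7 and 301 in medulloblastoma and between 847 and 1781 in glioma (-3.25 ± 0.28, adjusted p = 9.80e-07). Mbp, the major myelin basic protein, is named after its values were seen: it ranged from 733 to 7441 in glioma and from 133 to 2718 in medulloblastoma, where B6 and C6 were highest (-1.73 ± 0.62, adjusted p = 0.058). Without the 5 Gabra6-rich tumours 6 of the 12 were called and the median was -2.45. Of 16 astrocyte genes, 5 were higher in glioma (S100b, Aldoc, Fgfr3, Clu and Apoe) and none was lower. Fgfr3, a growth factor receptor, differed by -2.65 ± 0.50 (adjusted p = 0.0014), whereas 2 of the 16 were called without glioma A4, and 2 without the Gabra6-rich tumours, Aldoc and S100b being lost in both.

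**Figure D3:**
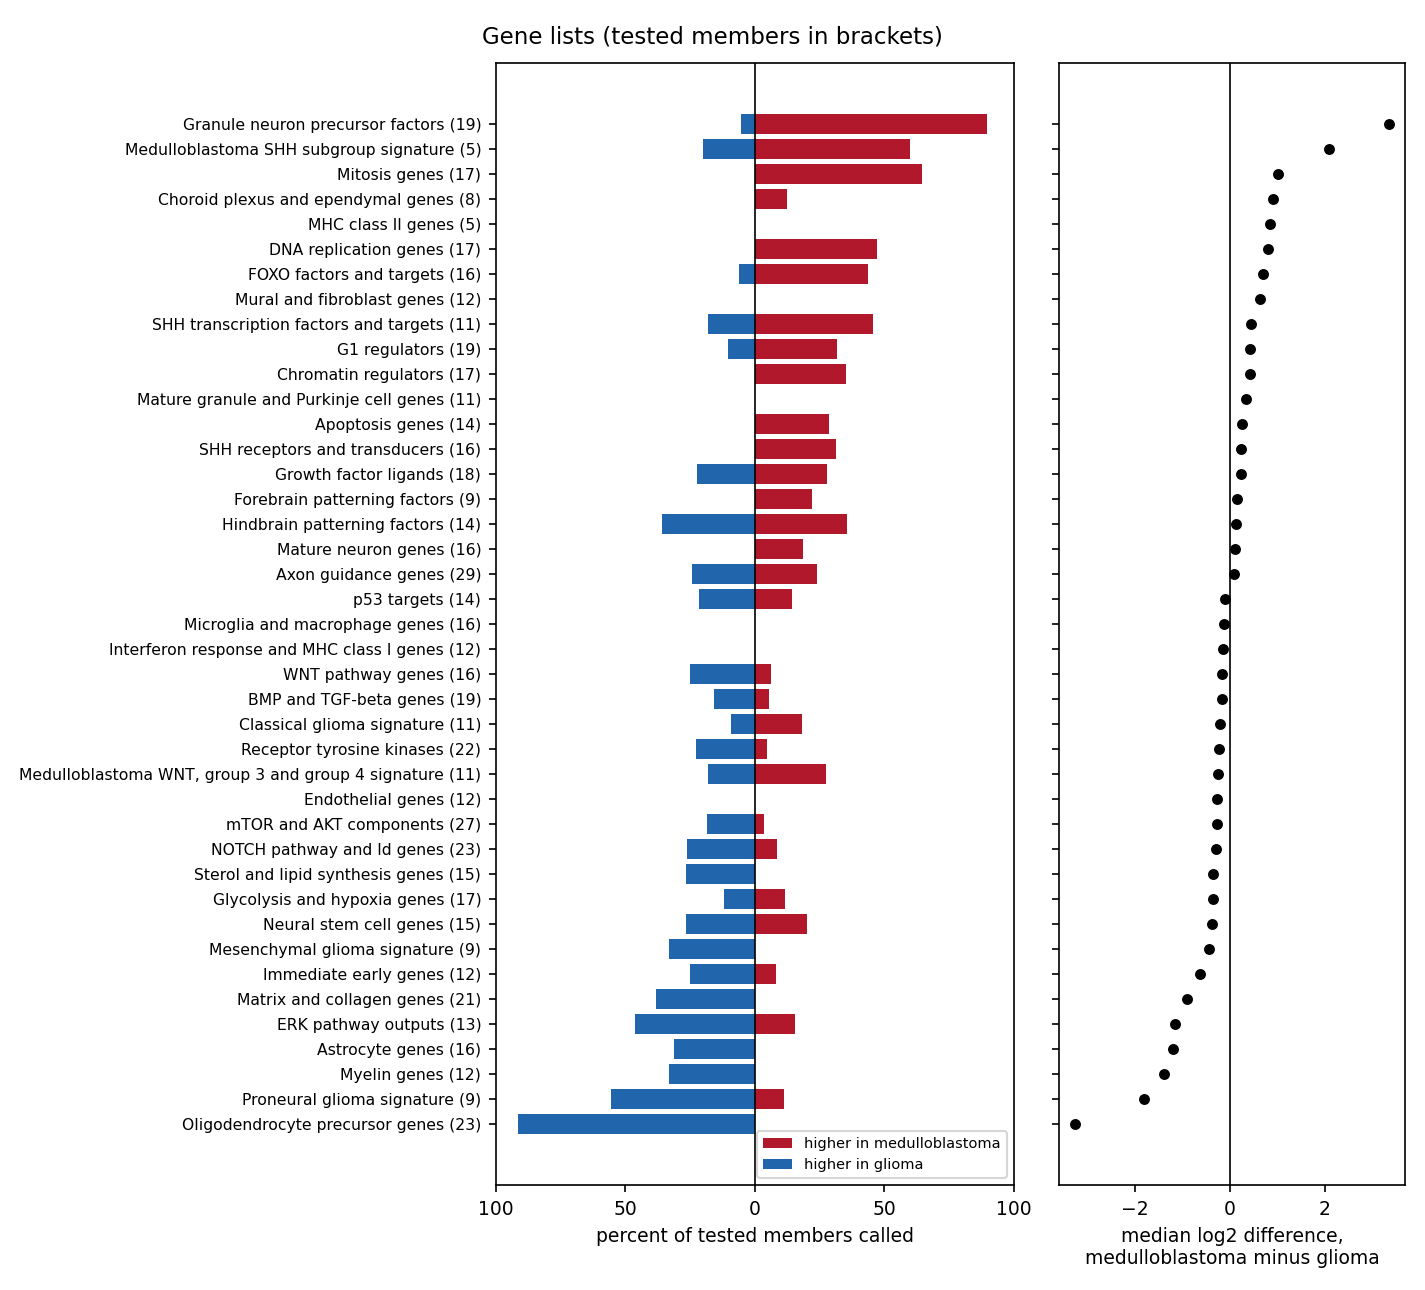
Gene lists with at least 5 tested members, ordered by their median. Left, percent of tested members called higher in medulloblastoma (red, to the right) or higher in glioma (blue, to the left); right, the median log2 difference, medulloblastoma minus glioma. Granule neuron precursor factors (median 3.36) and oligodendrocyte precursor genes (median -3.26) stand at the ends, and over all genes 9.59% and 10.6% were called. Lists and members were chosen with earlier results of these data known.

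Neural stem cell genes divided. Sox2, a factor of stem and glial cells, ran from 192 to 605 in medulloblastoma and from 1206 to 1789 in glioma (-1.96 ± 0.20, adjusted p = 4.93e-06), and its relative Sox3 differed by -2.95 ± 0.29 (adjusted p = 3.94e-06). Pax6, expressed by granule precursors as well as stem cells, was higher in every medulloblastoma, at 467 to 1482 against 50.9 to 147 (2.79 ± 0.28, adjusted p = 4.78e-06). In all 4 of 15 were higher in glioma and 3 in medulloblastoma. In the list of NOTCH pathway and Id genes 6 of 23, Id3 among them, were higher in glioma and 2 in medulloblastoma. The counts were 4 and 1 without glioma A4 and 4 and 2 without the Gabra6-rich tumours. Over all genes and arrays 10.6% and 9.59% were called in these directions. Notch1, the receptor, ran from 73.6 to 235 in medulloblastoma and from 498 to 1192 in glioma (-2.55 ± 0.30, adjusted p = 2.07e-05). Id3, an inhibitor of basic helix-loop-helix factors, differed by -2.50 ± 0.31 (adjusted p = 3.75e-05). Bmp4, a ligand that induces Id genes, lay between 4.5 and 26.8 against 51.2 and 398 in glioma (-3.11 ± 0.41, adjusted p = 5.70e-05); Bmp2 and Bmp7 were also higher in glioma, the last of them not without glioma A4.

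Patterning genes of the hindbrain went both ways, 5 of 14 higher in each tumour type. Without glioma A4 3 were higher in medulloblastoma and 4 in glioma, and without the Gabra6-rich tumours 2 and 4. Lhx1, a LIM homeobox factor, lay between 201 and 780.1 in medulloblastoma and between 4.2 and 107 in glioma (4.29 ± 0.51, adjusted p = 2.07e-05). Otx2, which positions the midbrain and hindbrain border, reached 848 in medulloblastoma and at most 11.4 in glioma (4.69 ± 0.81, adjusted p = 0.00064), but medulloblastoma C4 read 0.6. Irx3 and Hoxa2, named after their values were seen, were higher in every glioma, at -2.62 ± 0.35 and -2.36 ± 0.34. The sign of the list's median changed in 9 of the alternative analyses. Among genes used to tell human medulloblastoma subgroups apart, Hhip, Atoh1 and Sfrp1 of the 5 tested SHH genes were higher in medulloblastoma, Eya1 was lower and Pdlim3 did not pass. Hhip lost its call without glioma A4 and without the Gabra6-rich tumours, and Eya1 lost its call without glioma A4. Of 11 genes of the WNT, group 3 and group 4 subgroups, 3 were also higher in medulloblastoma (Mab21l2, Eomes and Rbm24) and 2 were higher in glioma (Tnc and Khdrbs2), and the counts were 2 and 2 without glioma A4 and 2 and 1 without the Gabra6-rich tumours. Of 9 proneural glioma genes, 5 were higher in glioma (Nkx2-2, Sox2, Erbb3, Olig2 and Pdgfra) and 1, Dcx of migrating neurons, was higher in medulloblastoma, a call lost without glioma A4 and without the Gabra6-rich tumours. Of 9 mesenchymal glioma genes 3 were higher in glioma (Mertk, Relb and Lox), 1 without glioma A4 and none without the Gabra6-rich tumours. Of 11 classical glioma genes Fgfr3 was higher in glioma, and Smo and Gli2 were higher in medulloblastoma, though Smo lost its call without glioma A4 and without several other single arrays.

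Neuronal genes rose in part. Stmn2, a growth-associated tubulin regulator, ran from 486 to 2759 in medulloblastoma and from 8.4 to 225 in glioma (3.78 ± 0.56, adjusted p = 0.00018). Slc17a6, a glutamate transporter, and Rbfox3, the NeuN antigen, differed by 3.44 ± 0.75 and 2.72 ± 0.58, and the other 13 of 16 mature neuron genes did not pass. Over all genes 20.2% were called. Without the Gabra6-rich tumours 2 of the 16 were higher in medulloblastoma. None of the 11 genes of mature granule and Purkinje cells passed in limma (2 had an unadjusted p under 0.05), and 1 was higher in medulloblastoma without the Gabra6-rich tumours. Their summed intensity lay between 721 and 10382 in medulloblastoma and between 687 and 7081 in glioma. Axon guidance genes, receptors and ligands together, were called in both directions, 7 of 29 higher in each tumour type. Dcc, the netrin receptor, ran from 304 to 2135.0 against 33.2 to 228 in glioma (3.90 ± 0.46, adjusted p = 2.07e-05), and Epha3 differed by 3.49 ± 0.56. Sema5a, a semaphorin, was higher in every glioma (-3.14 ± 0.57, adjusted p = 0.00092).

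Growth factor signalling genes differed at several levels. Tgfa, a ligand of the EGF receptor, lay between 30.9 and 95.0 in medulloblastoma and between 308 and 1176 in glioma (-3.36 ± 0.32, adjusted p = 2.69e-06). Igf2, a fetal growth factor, ran from 77.1 to 7323 among the gliomas and from 50 to 820 among the medulloblastomas (-3.55 ± 0.96, adjusted p = 0.015), and its call was lost without glioma A4 (adjusted p = 0.07). Fgf9 was higher in every medulloblastoma, at 110.4 to 232 against 8.4 to 33.2 (3.09 ± 0.25, adjusted p = 5.43e-07). Of 22 receptor tyrosine kinases, 5 were higher in glioma and 1 in medulloblastoma. Erbb3, a neuregulin receptor, showed the largest of these differences (-3.52 ± 0.49, adjusted p = 9.45e-05). Among 13 outputs of the ERK pathway 6 were higher in glioma and 2 in medulloblastoma, with a median of -1.16. Without glioma A4 5 were higher in glioma and 1 in medulloblastoma. Without the 5 Gabra6-rich tumours 2 were higher in glioma and none in medulloblastoma. Within the YZ arrays 8 were higher in glioma (median -1.55). Within the YZ2 arrays none was (median -0.26), and none in the Rictor+/- tumours alone (median -0.51), subsets with fewer arrays. The mean log2 level of the list in glioma B3 (6.78) lay within the medulloblastoma range of 6.63 to 7.58, and the other gliomas lay at 7.66 to 8.91. Spry1, a feedback inhibitor, ran from 46.0 to 86.6 in medulloblastoma and from 129 to 920 in glioma (-2.57 ± 0.36, adjusted p = 0.00011), while the phosphatase Dusp5 was higher in medulloblastoma (2.10 ± 0.40, adjusted p = 0.0014). Nr4a1, an immediate early receptor gene, was higher in every glioma, at 354 to 1086 against 30.2 to 177 (-3.44 ± 0.31, adjusted p = 1.73e-06).

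In the pathway that holds Rictor, 5 of 27 mTOR and AKT genes were higher in glioma and 1 in medulloblastoma, where 10.6% and 9.59% of all genes were called in these directions. Pik3r1, the regulatory subunit of PI3-kinase, showed the largest difference: it lay between 101 and 315 (median 214) in the medulloblastomas and between 1294 and 2773 (median 1928) in the gliomas (-3.40 ± 0.25, adjusted p = 2.21e-07). Sgk1, a kinase activated through mTORC2, ran from 203 to 501 against 973 to 2974 (-2.46 ± 0.30, adjusted p = 2.97e-05), and Sgk3 likewise did not overlap (-2.08 ± 0.26, adjusted p = 3.42e-05). Prkca, a protein kinase C that depends on mTORC2, differed by -2.35 ± 0.38 (adjusted p = 0.00036). As background, means in normal brain and glioma were 1518 and 1793 for Sgk1, 189 and 244 for Sgk3, and 705 and 555 for Prkca. For Pik3r1 they were 493 and 2006, and normal brain was not part of the test. Prr5l, which binds mTORC2, was called at -0.96 ± 0.29 (adjusted p = 0.028) and not without glioma A4. Irs1, the insulin receptor substrate, was higher in medulloblastoma (1.08 ± 0.27, adjusted p = 0.0092). Mtor and Akt1 did not pass, at 0.01 and 0.27.

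FOXO transcription factors are held out of the nucleus by AKT. Of 16 FOXO factors and targets, 7 were higher in medulloblastoma and 1 in glioma, with a median of 0.70. Cited2, a transcriptional co-regulator, differed by 2.20 ± 0.32 (adjusted p = 0.00014) and Bcl6, a repressor, by -1.71 ± 0.34 (adjusted p = 0.0018). The factors Foxo1, Foxo3 and Foxo4 themselves did not pass. Without glioma A4, and likewise without the 5 Gabra6-rich tumours, 3 of the 16 were higher. Of 14 p53 targets 2 were higher in medulloblastoma and 3 in glioma (2 without the Gabra6-rich tumours), where 9.59% and 10.6% of all genes were called. Eda2r, a death receptor gene, ran from 31.6 to 122 in medulloblastoma against 0.6 to 15.5 in glioma (2.73 ± 0.32, adjusted p = 2.07e-05), and the classical targets Cdkn1a and Mdm2 did not pass.

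Genes of cell division were called higher in medulloblastoma with all arrays, and fewer were called when glioma A4 was left out. Of 17 mitosis genes 11 were called higher, with a median of 1.01. Without glioma A4 1 of the 17 was called (median 0.54), and without the 5 Gabra6-rich tumours, which include A4, also 1 (median 0.51). Over all genes, calls higher in medulloblastoma fell too, from 1322 to 611 without A4 and 375 without the 5. The median of the mitosis list kept its sign in every alternative, between 0.51 and 1.33. The mean log2 level of the list was 6.39 in glioma A4, 7.996 to 8.70 in the other 5 gliomas and 8.22 to 9.20 in the medulloblastomas. Mki67, the proliferation antigen, read 168 in glioma A4, 573 to 968 in the other gliomas and 479 to 2007 in the medulloblastomas (1.27 ± 0.35, adjusted p = 0.018), and its difference without A4 was 0.88 (adjusted p = 0.15). Of 17 DNA replication genes 8 were higher with all arrays and 4 without A4. Mcm6, a subunit of the replicative helicase, was higher in every medulloblastoma, at 635 to 1911 against 170 to 477 (1.89 ± 0.27, adjusted p = 0.00013), and passed without A4 (adjusted p = 0.0021). Of 17 chromatin regulators 6 were higher with all arrays and 2 without A4; Chd7, a remodelling enzyme, did not overlap between the groups (1.43 ± 0.24, adjusted p = 0.00044). Without the 5 Gabra6-rich tumours 1 replication gene and no chromatin regulator of these was called.

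**Figure D4:**
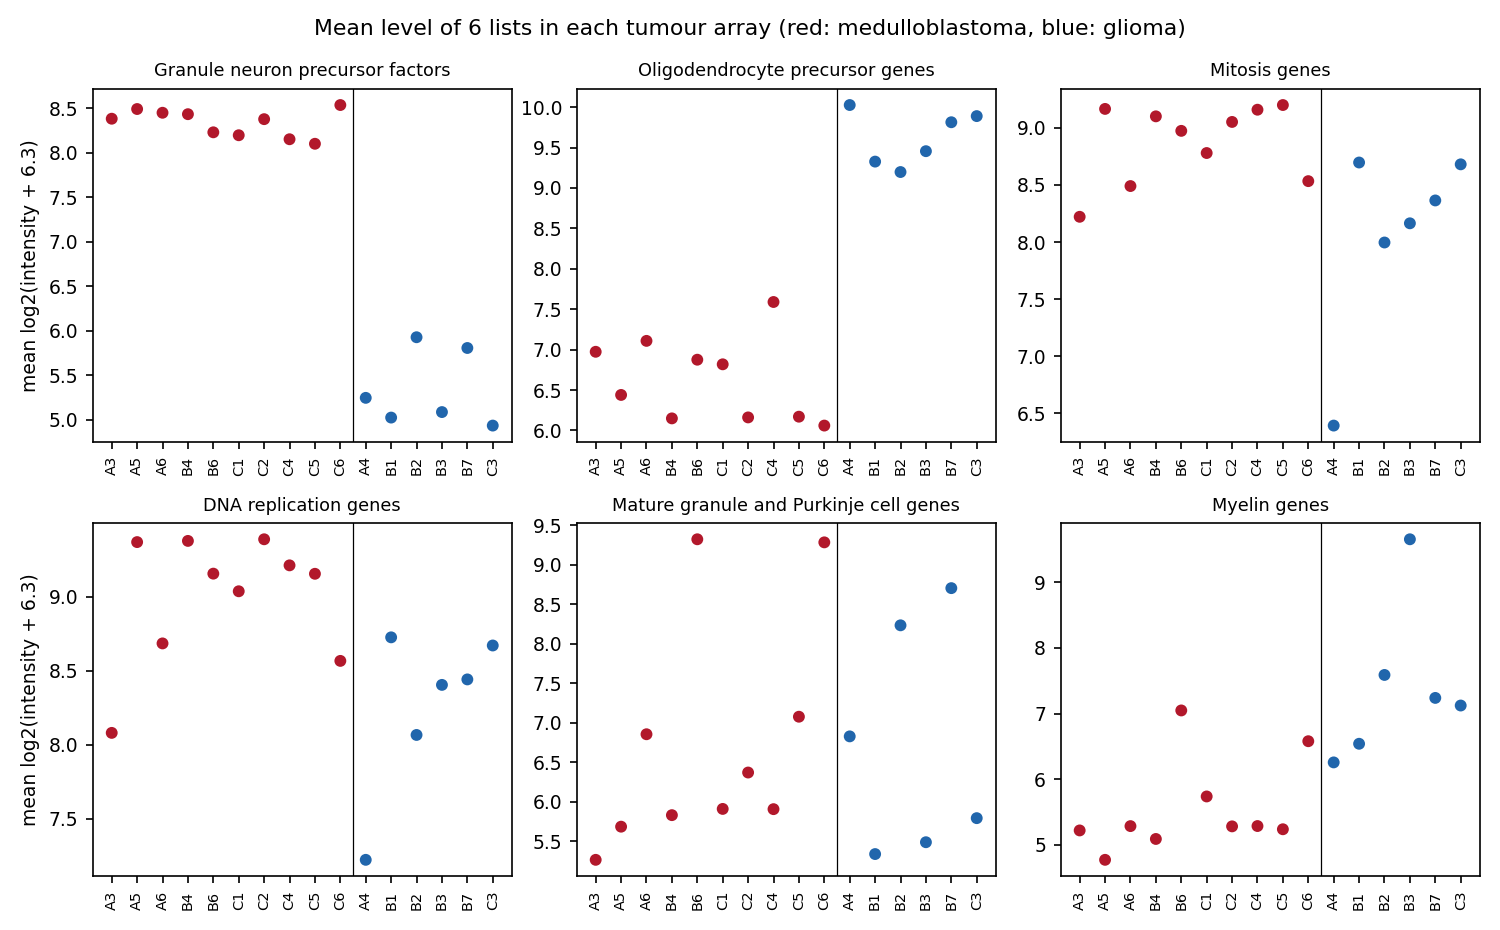
Mean log2(intensity + 6.3) of the tested members of 6 lists in each tumour array, medulloblastomas in red and gliomas in blue, with the array's code below; each panel has its own vertical scale. Granule and oligodendrocyte precursor lists separate the tumour types in every array, glioma A4 stands lowest for mitosis (6.39) and DNA replication (7.22), and the mature granule and Purkinje cell list is high in medulloblastomas B6 and C6 and in gliomas B2 and B7.

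Metabolic genes showed single large differences. Hk2, the hexokinase of growing tissue, ran from 219 to 1729 in medulloblastoma and from 48.8 to 178 in glioma (2.96 ± 0.45, adjusted p = 0.0002), whereas 13 of 17 glycolysis and hypoxia genes did not pass. Of the 17, 2 were higher in each tumour type, where 20.2% of all genes were called. Without glioma A4, and likewise without the Gabra6-rich tumours, 1 was higher in each. Of 15 sterol and lipid genes 4 were higher in glioma (2 without the Gabra6-rich tumours) and none in medulloblastoma. Dhcr7, the last enzyme of one route to cholesterol, ran from 52.6 to 142 against 144 to 1159 in glioma (-2.51 ± 0.45, adjusted p = 0.00084). In the WNT list Nkd1, a feedback inhibitor, was higher in every medulloblastoma (2.83 ± 0.38, adjusted p = 7.08e-05) and Tcf7l2, a transcription factor of the pathway, in every glioma (-2.05 ± 0.33, adjusted p = 0.00037), while 11 of 16 genes did not pass. Of the 16, 4 were higher in glioma with all arrays, 1 without glioma A4 and 2 without the Gabra6-rich tumours. Lgr5 lost its call in both. Of 14 apoptosis genes 4 were higher in medulloblastoma (2 without glioma A4, none without the Gabra6-rich tumours), led by Pmaip1, a pro-apoptotic BCL2 relative (1.66 ± 0.36, adjusted p = 0.0037).

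Markers of other cells in the pieces gave few calls. None passed among 16 microglia, 5 MHC class II, 12 interferon and MHC class I, 12 endothelial, 12 mural and fibroblast and 2 lymphocyte genes (limma, all arrays). Without the Gabra6-rich tumours 1 mural and fibroblast gene was higher in medulloblastoma. Summed microglial intensity lay between 2540 and 6342 in medulloblastoma and between 2668 and 11466 in glioma, and summed endothelial intensity between 899 and 2027 and between 1221 and 2222. Without adjustment, 1 microglia, 1 MHC class II, 2 endothelial and 3 mural and fibroblast genes had a p under 0.05, and none of the interferon or lymphocyte genes did. Of 8 choroid plexus and ependymal genes only Clic6 was called (2.80 ± 0.82, adjusted p = 0.023), and not without glioma A4 or without the Gabra6-rich tumours. Ttr, the main secreted protein of choroid plexus, was at 5.1 to 8734 within medulloblastoma and 10.4 to 147 in glioma. These ranges are spreads over arrays, not the precision of a difference, and a gene that did not pass was not shown to be equal in both tumours.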

How the data were processed

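Total RNA of snap-frozen tumour pieces, judged from matched fixed tissue to be mostly tumour cells, was hybridised to one-colour Affymetrix Mouse 430 2.0 arrays per the labels' protocols. The deposited values are linear intensity readings, made with MAS5 and GCOS per the submitters' processing notes, with versions not given in the sources used here. Of 45101 probe sets, 34945 had 1 gene symbol, 932 several, 9160 none, and 64 were controls, which were left out. Each gene took its probe set of highest mean. Genes with a mean above the 30th percentile (3.87 on the log2 scale) were tested as log2(intensity + 6.3), a scale that understates differences of dim genes.

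A limma 3.58.1 model (R 4.3.3; lmFit, eBayes with trend) over the 16 tumour arrays had tissue and Rictor genotype as terms, and a gene was called at an adjusted p (Benjamini-Hochberg) under 0.05. Errors beside log2 differences are SE from this model. It was tested on simulated data. Tables and plots used Python 3.11.15. The number of arrays limits the precision. Members and lists were chosen with earlier results of these data known.

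Named genes were the 15 largest rises and falls without overlap, up to 3 called members of each list (or 2 bright ones where fewer than 2 were called), the called mTOR and AKT genes with Rictor, the 6 most variable genes of each tumour type, and label checks; any other gene named was chosen after its values were seen. List counts have no set test. Promoters are RefSeq's (GRCm38.p6). Alternatives changed the pseudocount, filter, normalization, covariates, probe set, variance model and arrays.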

Additional observations from a re-analysis of the deposited data

Results flagged for a closer look

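Of 288 groups of values examined for a sample far from the others, 36 held one. The rule flags about 1 in 20 by chance for a gene not picked by its values. These were the named genes, some of them picked for a large spread within a tumour type, and all groups share the same 16 arrays. The count of 36 can therefore not be read as an excess over that rate. All are intensities, and no cause was tested.

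Several of the values belonged to medulloblastoma C6, which was lowest for Atoh1 (37.5, others from 493), Gli1 (23.4, others from 95.4), Smo (149.8), Dcc (304.2) and Hsd11b2 (45.8), and highest for Hapln1 (15). Medulloblastoma C4 was lowest for Otx2 (0.6) and Cbln1 (98.8) and highest for Sox6 (174.7) and Lox (72.3). Medulloblastoma C1 was lowest for Rictor (68.8) and Rgs5 (168.1) and highest for Kctd4 (110.9) and Plk2 (354.8). Medulloblastoma A6 was highest for Slc2a1 (1174.2) and Nr4a1 (177.4), A3 lowest for Neurod1 (1602.7) and Bub1 (308.9), and C5 lowest for Pdgfra (374.4).

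Among gliomas, A4 was lowest for the division genes Mki67 (168.0, others from 573) and Mad2l1 (116.4, others from 329) and highest for Dcpp1 (18) and Isl1 (6.1). Glioma B3 was highest for Cnmd (4464.4) and Igfbpl1 (93.0) and lowest for Xist (17.3), Bmp7 (42.0) and Gli1 (1.3). Glioma B1 was highest for Cox8b (2329.9), Otx1 (6.0) and Ms4a1 (9.9) and lowest for Boc (36.2) and Pax6 (50.9). Glioma C3 was highest for Olig2 (1780.6) and Cyp11a1 (10.4), and glioma B7 was lowest for Smo (44.2). The glioma values of Isl1, Gli1, Otx1, Ms4a1 and Cyp11a1 are dim, near or below the 6.3 added to each intensity.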

How the results depend on the processing

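With all tumours 2783 genes were called. The count was 1841 with YZ arrays only (804 higher in medulloblastoma), 704 with YZ2 arrays only (255 higher in medulloblastoma, 449 in glioma), 1840 without the Rictor-null tumours (837 higher in medulloblastoma), 466 in the Rictor-heterozygous tumours only (205 and 261) and 975 without the Gabra6-rich tumours (375 and 600). YZ and YZ2 are title prefixes of unstated meaning. Of these calls 1596, 648, 1737, 458 and 928, in the same order, were among the 2783. These subsets hold fewer arrays. Leaving out 1 array gave 1468 to 3030 calls, 611 to 1458 of them higher in medulloblastoma and 857 to 1572 in glioma; the lowest was without glioma A4, and without glioma C3 871 were higher in medulloblastoma. The other settings gave 2326 to 4035 calls. In the YZ2 arrays 36.2% of calls were higher in medulloblastoma, against 47.5% with all tumours. Of 116 named genes called, 50 kept the call in all 31 alternatives and 89 without each array. The 10 genes named for their spread alone, none of them called, were left out of these counts and of the reversals below. That choice was made after their results under the alternatives had been seen.

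Pdgfra, called lower in medulloblastoma, was at 0.57 without a call with its probe set of largest variance; the cause was not tested. Other reversals were in genes without a call: Car8 (0.054 in the heterozygous tumours), Cd8a (0.19 without the Gabra6-rich tumours), H2-D1 (0.057) and Cldn5 (0.065) in the YZ2 arrays, Ctss (-0.27 to 0.086 over the arrays left out, highest without medulloblastoma B6), Rictor (0.048 in the heterozygous tumours, 0.033 without the Gabra6-rich ones, 0.25 with another probe set, -0.18 to 0.081 over the arrays left out, highest without glioma A4), and Rgs5 (-0.10 with the prefix as a block, -0.20 in the YZ arrays, -0.046 in the heterozygous tumours, -0.088 without the Gabra6-rich tumours, -0.15 to 0.22 over the arrays left out, below 0 without medulloblastoma A3, glioma A4 or glioma B1). No paired analysis was possible because no code occurs in both tumour types.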

Other observations

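Within each tumour type a few genes varied far more than the typical gene, whose SD on the log2 scale had a median of 0.43 in medulloblastoma and 0.38 in glioma. Rras2, a RAS-related GTPase, read 5269 in glioma B7 and 4614 in glioma C3, while the medulloblastomas lay between 21.8 and 112. Cxcl13, a chemokine that attracts B cells, reached 2333 in glioma B3. Cnmd, a cartilage gene, read 4464 in glioma B3, and Cox8b, a muscle form of a respiratory chain subunit, read 2330 in glioma B1 and at most 17.6 in the other gliomas. In medulloblastoma, Isl1, a LIM homeobox factor of motor and sensory neurons, ran from 0.5 to 1021, and the related genes Dcpp1 and Dcpp3 reached 2385 and 1642. Xist, the RNA of the inactive X chromosome, was among the most variable genes of both tumour types: it read 18.9 in medulloblastoma A6, 21.2 in medulloblastoma C6, 17.3 in glioma B3 and 609 to 6171 in the other tumours. Immunoglobulin genes varied in both: Igha ran from 32.6 to 4563 in medulloblastoma and from 4.9 to 2012 in glioma, and Igkv8-30 from 2.7 to 2221 in medulloblastoma. These genes were picked for their spread. None of them passed between the tumour types (limma, adjusted p from 0.065 for Isl1 to 0.85 for Xist).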
